A study of Mus musculus with 9 samples.

Results

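The genes described here encode the mouse major histocompatibility complex (MHC, called H2 in the mouse) and the machinery that prepares and loads its peptides. The rule that chose them uses names and no measured value, but it was set with earlier results of these data known. It takes the 34 protein-coding genes whose symbol begins with H2- and 15 listed genes of antigen processing. These are 49 of the 55487 genes in the deposited count table. Poly-A RNA-seq was done on MCEC, an endothelial cell line from mouse heart, in 3 groups of 3 libraries: unmodified cells (WT), cells with the zinc finger transcription factor Zbtb46 knocked down (KD) and cells with Zbtb46 overexpressed (OE). The labels give neither the way Zbtb46 was lowered or raised, nor the number of clones, nor the mouse strain, and no library from cells carrying a control vector was analysed here. They number the libraries of a group 1 to 3 without saying whether these came from separate cultures, so p values measure the spread between these libraries, which may be technical.

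MHC class I molecules are a heavy chain held by B2m (beta-2-microglobulin) and a short peptide. Most of these peptides are cut by the proteasome, carried into the endoplasmic reticulum by the Tap1-Tap2 transporter, trimmed there by Erap1 and fitted into the groove with the help of Tapbp (tapasin). MHC class II molecules carry peptides from endocytosed protein, which H2-DM exchanges for a fragment of the invariant chain Cd74. Endothelial cells line the vessels that T cells cross, usually carry class I, and make class II mainly after exposure to interferon gamma.

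Libraries held 39491828 to 55745849 counts. Levels are given as CPM, each library's counts divided by its TMM-scaled total, and adjusted p values come from the quasi-likelihood test of edgeR after Benjamini-Hochberg adjustment over the 16955 genes tested, called when under 0.05. Zbtb46 itself stood at 13.7 ± 0.623 CPM (SD, n = 3) in WT, against 11.2 ± 0.537 in KD and 191 ± 2.67 in OE. It was called lower in KD (log2 fold change -0.28, SE 0.055, adjusted p 0.00144), and KD and WT did not overlap. The fall in this mRNA was small, at 17.8%. Of 12 endothelial markers, 4 reached 1 CPM in some group (Eng, Egfl7, Kdr and Tek), Pecam1 and Cdh5 had at most 10 and 7 counts in a library, and Erg had 0 counts throughout. The fibroblast and mural marker Col1a1 reached 5259 CPM in WT, so the RNA levels do not bear out the label's endothelial cell type in full. Of 13 markers of leukocytes and antigen-presenting cells only Cd68 reached 1 CPM, Ptprc had at most 2 counts in a library, and the summed level of the list was 4.40 to 4.99 CPM in WT, against 5.35 to 6.15 in KD and 3.76 to 4.83 in OE. The summed endothelial list was at 129.5 to 142.6 CPM in WT, against 112.9 to 117.9 in KD and 87.04 to 94.38 in OE, and the fibroblast and mural list, most of it Col1a1, at 5119 to 5688, 4853 to 4917 and 4042 to 4135. All 5 tested genes of that list were called lower in OE, where Acta2 fell by 77.3%, Dcn fell by 62.5% and Pdgfrb fell by 62.5%; in KD, 2 were called lower, Acta2 (which fell by 63.8%) and Col1a1 (which fell by 9.23%). The summed list of 4 cardiomyocyte markers was at 0.504 to 1.30 CPM in WT, 7.89 to 8.72 in KD and 6.40 to 7.65 in OE. Of these, Actc1 had 0 counts in the 3 WT libraries, 310 to 357 in KD and 223 to 286 in OE, and Myh6 had 0 counts throughout. The part of these shifts in the results below was not tested.

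Of the 49 genes, 30 had enough counts to be tested. The other 19 had at most 8 counts in any library, and 7 of them had 0 counts in all 9 libraries. The 4 class II chain genes were all among the untested: H2-Aa and H2-Ab1 had at most 4 counts in a library, H2-Eb1 and H2-Eb2 at most 1. Ciita, the master transactivator of class II genes, had at most 5 counts in a library, and the H2-DM modulator genes H2-Oa and H2-Ob at most 4 and 1. Also untested were 11 of the 12 M region genes and H2-Ke6, which despite its name encodes a steroid dehydrogenase. A change in these genes was not detectable with these counts. Exons of Gm20427 overlap those of H2-Ke6 on the same strand, so reads there may not have been counted to H2-Ke6.

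Levels between genes can be compared only per length, as CPM per kilobase of annotated exon. On this scale B2m was highest in WT, at 140 ± 2.71 (SD, n = 3), followed by the classical heavy chains H2-K1 at 70.1 ± 5.89 and H2-D1 at 59.9 ± 3.76. Next came Tapbp at 36.3 ± 0.512, the proteasome activator subunits Psme2 at 30.7 ± 1.78 and Psme1 at 24.98 ± 1.51, the proteasome subunit Psmb10 at 12.8 ± 0.349 and the heavy chain H2-Q4 at 12.6 ± 1.64. Psmb10 and H2-Q4 did not differ beyond their spread. The peptide transporter was far lower, with Tap2 at 0.820 ± 0.0325 and Tap1 at 0.531 ± 0.0330 CPM per kilobase. Lowest were Psmb9 at 0.0968 ± 0.00459, the class I transactivator Nlrc5 at 0.0787 ± 0.00564, H2-T3 at 0.0753 ± 0.0385 and Psmb8 at 0.0552 ± 0.0531. H2-T3 and Psmb8 did not differ beyond their spread from each other, from Psmb9 or from Nlrc5.

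**Figure D1:**
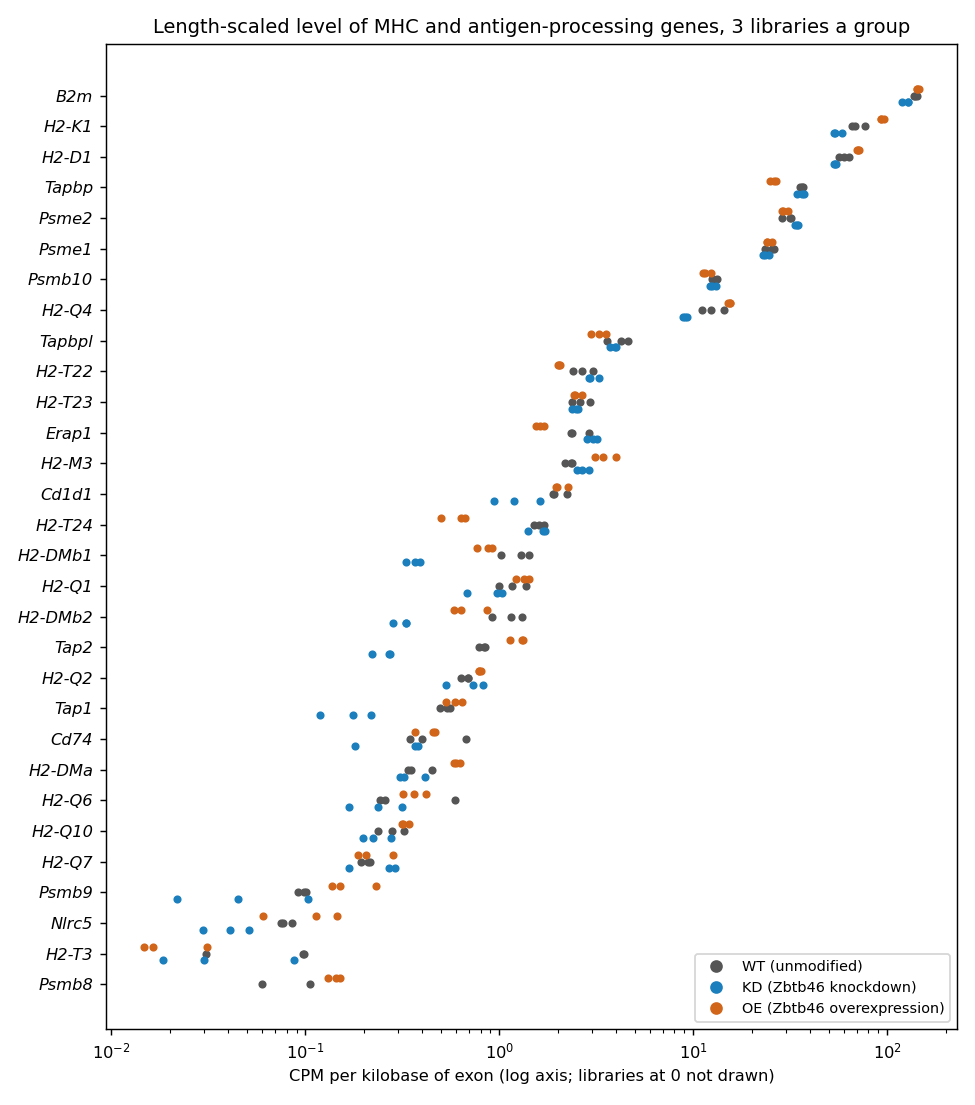
Each point is 1 library; the horizontal log axis gives CPM per kilobase of exon for the 30 tested genes, ordered by their mean in WT, with WT in grey, KD in blue and OE in orange. B2m is highest in WT at 140 and Psmb8 lowest at 0.0552; libraries at 0, such as the 3 KD libraries for Psmb8, are not drawn.

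In KD against WT, 12 of the 30 tested genes were called (40%), 2 higher and 10 lower, where 21.3% of all genes tested were called, 11% higher and 10.4% lower. The median log2 fold change was -0.22 over the 30 genes and -0.0022 over all genes. In OE against WT, again 12 were called (40%), 6 higher and 6 lower, where 36.4% of all genes were called, and the median was 0.040 against 0.0020 for all genes. In OE against KD, 20 were called (66.7%), 15 higher and 5 lower, where 41.5% of all genes were called, and the median was 0.43 against 0.011. The share of genes called was thus close to that of all genes in OE against WT and above it in the other comparisons. Each pair of comparisons shares 3 libraries, so their counts are not independent of each other. In the test of any difference among the 3 groups, 21 of the 30 were called, where 47.7% of all genes were. KD and WT did not overlap for 12 of the genes, beside 34.7% of all genes; OE and WT did not for 17, beside 45.1%; OE and KD did not for 23, beside 55.4%. Calls of at least 2-fold numbered 5, 1 and 8 in the same order, beside 2.64%, 5.34% and 7.49% of all genes. With library totals in place of TMM the split in KD became 0 higher and 10 lower.

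The classical class I heavy chains fell in KD and rose in OE. H2-K1 (ENSMUSG00000061232, chromosome 17, 33996017 to 34000347, minus strand, GRCm38) stood at 200, 193 and 225 CPM in the WT libraries, 158, 156 and 171 in KD, and 272, 283 and 272 in OE. The 3 groups did not overlap, with KD lowest and OE highest. H2-K1 fell by 21.4% in KD (log2 fold change -0.35, SE 0.079, adjusted p 7.19e-05) and rose 1.34-fold in OE (0.42, SE 0.071, adjusted p 2.15e-06). H2-D1 stood at 154, 145 and 165 CPM in WT, 138, 140 and 139 in KD, and 179, 183 and 185 in OE. It, too, had 3 separate groups, with smaller steps: -0.15 (SE 0.053, adjusted p 0.0177) in KD and 0.24 (SE 0.054, adjusted p 2.22e-04) in OE. The call of H2-D1 in KD was lost without WT replicate 3 (-0.10, adjusted p 0.0619), KD replicate 1 (-0.15, 0.0736), KD replicate 2 (-0.16, 0.0569) or KD replicate 3 (-0.15, 0.0689). B2m, the shared light chain, stood at 118, 120 and 123 CPM in WT, 103, 111 and 110 in KD, and 122, 123 and 125 in OE. It fell by 10.3% in KD (log2 fold change -0.16, SE 0.037, adjusted p 0.0112; without KD replicate 1, -0.12 and adjusted p 0.0907). In OE its difference from WT was 0.034 (SE 0.020, adjusted p 0.593).

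Heavy chain genes resemble each other, and strains of mice differ in them, so reads of one may be counted to another. Of the distinct 150-base stretches in annotated transcripts (150 bases being the read length), 1.4% of those of H2-D1 and 0 of those of H2-K1 also occurred in another gene, beside 9.9% for H2-Q4. The shared 150-base stretches of H2-D1 occurred in H2-Q1. Those of H2-Q4 occurred only in Gm11131, an antisense gene that overlaps its exons, and not in another heavy chain gene. For 50-base stretches the shares were 12.8% for H2-D1, 9.6% for H2-K1 and 36.4% for H2-Q4. These shares hold for the reference, and the strain of the cells is not labelled. H2-K2, which is outside the rule, was also called lower in KD (-0.50, SE 0.13, adjusted p 0.00353) and higher in OE (0.55, SE 0.14, adjusted p 5.46e-04). The summed level of the 24 heavy chain genes was 425 ± 31.4 CPM (SD, n = 3) in WT, against 356 ± 9.41 in KD and 527 ± 8.37 in OE, and did not overlap between groups. H2-K1 and H2-D1 gave 84.9% ± 0.560 of that sum in WT, against 84.5% ± 0.138 in KD and 86.9% ± 0.225 in OE. The ratio of H2-K1 to H2-D1 counts was 1.33 ± 0.0358 in WT, against 1.17 ± 0.0593 in KD and 1.51 ± 0.0378 in OE.

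Among the 6 Q region genes, which encode non-classical (class Ib) heavy chains, only H2-Q4 was called against WT. It stood at 31.9, 28.8 and 37.2 CPM in WT, 23.4, 23.0 and 24.2 in KD, and 39.4, 40.1 and 40.0 in OE. The groups did not overlap: H2-Q4 fell by 27.8% in KD (log2 fold change -0.47, SE 0.109, adjusted p 1.06e-04) and rose 1.22-fold in OE (0.29, SE 0.108, adjusted p 0.00358). The antisense transcript Gm11131 overlaps its exons and had at most 30 counts in a library. H2-Q1 differed in OE against KD (0.55, SE 0.19, adjusted p 0.0165), a call lost without KD replicate 2 (0.40, adjusted p 0.106) or OE replicate 3 (0.50, 0.0618). H2-Q2, H2-Q6, H2-Q7 and H2-Q10 passed in no comparison, with mean levels of 0.760 to 1.47 CPM in WT.

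The T region genes moved otherwise. H2-T24 stood at 3.69, 3.48 and 3.31 CPM in WT, 3.06, 3.74 and 3.67 in KD, and 1.09, 1.45 and 1.38 in OE. The OE libraries lay below all others, and the level fell by 62.5% against WT (log2 fold change -1.42, SE 0.13, adjusted p 2.04e-06), while KD and WT overlapped (-0.0026, SE 0.10, adjusted p 0.995). H2-T22, whose product is a ligand of some gamma-delta T cells, stood at 10.4, 9.09 and 8.21 CPM in WT, 9.91, 10.1 and 11.1 in KD, and 6.86, 6.95 and 6.98 in OE. It fell by 24.7% in OE (-0.41, SE 0.097, adjusted p 0.00422), again with OE separate from the rest. Of its 150-base stretches 22.3% occurred elsewhere, in the overlapping antisense gene A930015D03Rik, which had at most 13 counts in a library, or in H2-T10, which is outside the rule. H2-T10 was the more abundant, at 18.6 ± 1.60 CPM (SD, n = 3) in WT and up to 1215 counts in a library, and was itself called lower in OE (-0.27, SE 0.077, adjusted p 0.00741). H2-T23, the source of the Qa-1 molecule seen by natural killer cells, was at 7.64 ± 0.841 CPM (SD, n = 3) in WT, against 7.13 ± 0.254 in KD and 7.27 ± 0.389 in OE and passed in no comparison. H2-T3 had 2 to 12 counts in a library, and its OE and WT libraries overlapped. Its difference in OE was -1.76 (SE 0.47, adjusted p 0.0902) and passed without WT replicate 2 (-2.19, adjusted p 0.0486), the lowest of the WT libraries. H2-M3, which presents formylated peptides and was the only M region gene tested, rose from 3.30 ± 0.138 CPM in WT to 5.05 ± 0.638 in OE (0.61, SE 0.11, adjusted p 0.00180). In KD it was at 3.87 ± 0.266 CPM (0.23, SE 0.066, adjusted p 0.295). Its difference between OE and KD (0.38, adjusted p 0.0352) was lost without OE replicate 2 (0.40, 0.0660) or 3 (0.28, 0.172), and without KD replicate 1 (0.33, 0.133) or 2 (0.37, 0.0894).

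Besides Psmb8, the genes called at least 2-fold lower in KD were both genes of the peptide transporter and both beta chain genes of H2-DM. Tap1 (ENSMUSG00000037321, chromosome 17, 34187553 to 34197225, plus strand) stood at 3.06, 2.96 and 2.71 CPM in WT, 1.19, 0.653 and 0.963 in KD, and 3.22, 2.91 and 3.53 in OE. Its KD libraries lay below all others, and its level fell by 67.4% (log2 fold change -1.61, SE 0.25, adjusted p 1.06e-05), and WT and OE overlapped (0.15, SE 0.095, adjusted p 0.598). Tap2 (ENSMUSG00000024339, chromosome 17, 34203527 to 34216321, plus strand) stood at 3.16, 2.96 and 3.18 CPM in WT, 0.834, 1.03 and 1.02 in KD, and 4.94, 5.03 and 4.27 in OE. All 3 groups were separate: Tap2 fell by 68.9% in KD (-1.69, SE 0.10, adjusted p 6.87e-07), rose 1.53-fold in OE (0.62, SE 0.081, adjusted p 0.00317) and differed 4.94-fold between OE and KD. These are 26 to 60 counts for Tap1 and 41 to 50 for Tap2 in a KD library. Tap1 and Tap2 were called in KD, with log2 fold changes between -1.83 and -1.43, in each of the 17 alternative analyses listed under processing other than the minimum-fold test.

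**Figure D2:**
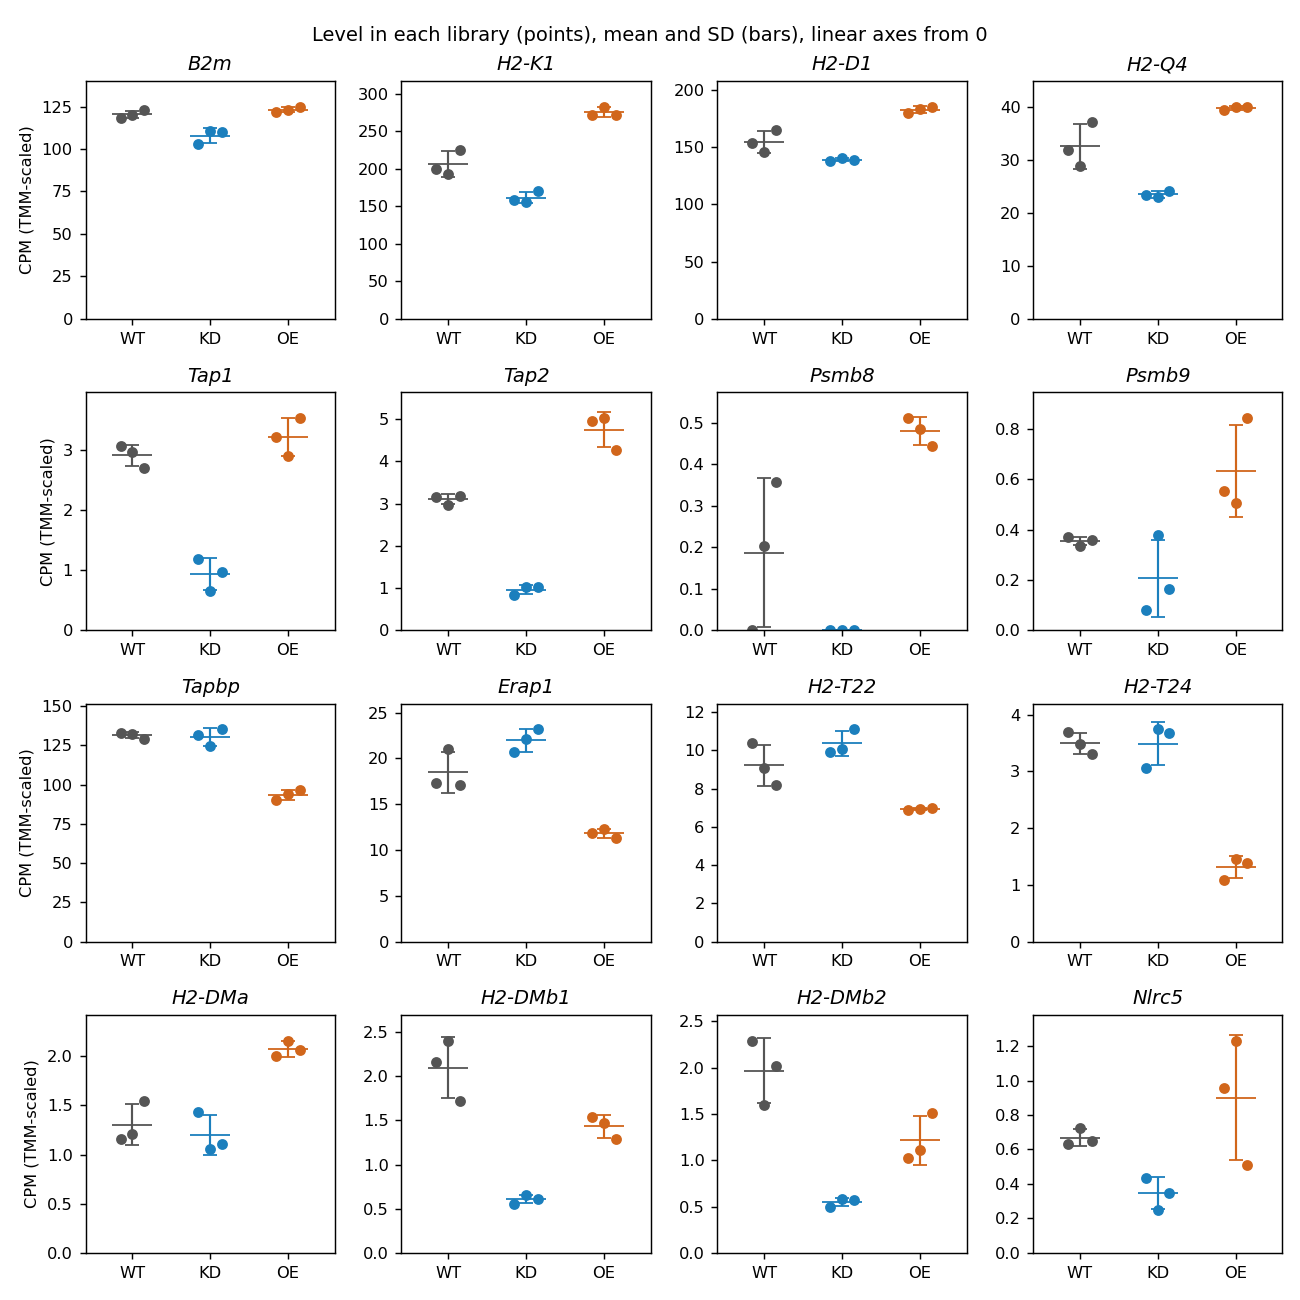
Each panel gives 1 gene in CPM on a linear axis from 0; points are the 3 libraries of a group, and bars the mean and SD. For Tap1 and Tap2 the KD libraries sit at 0.653 to 1.19 CPM against 2.71 to 3.18 in WT, and for H2-K1 the 3 groups are separate with OE highest.

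Psmb8 and Psmb9 encode proteasome subunits that replace Psmb5 and Psmb6 in the immunoproteasome, and they lie beside the Tap genes. Exons of Psmb9 and Tap1 overlap on opposite strands. The antisense gene Gm20496 overlaps exons of both Psmb8 and Tap2, and Gm15821, on the strand opposite Tap2, overlaps exons of Tap2. Strand use in counting is not given, so reads there may have been counted to either gene. Psmb8 had 0 counts in the 3 KD libraries and in WT replicate 1, 12 and 16 counts in the other WT libraries, and 24, 24 and 20 counts in OE. With KD set at a floor of 3 counts per library, the mean Psmb8 level was at least 2.85-fold higher in WT and at least 7.33-fold higher in OE. The WT value is for the mean alone, since WT replicate 1 was itself under the floor. The calls of the fit over all 9 libraries (adjusted p 0.00751 for KD against WT and 2.02e-04 for OE against KD) belong to a fitted fold over a group at 0, not to these bounds. Psmb8 passed the filter on low counts through the OE libraries, was filtered out when only KD and WT were fitted, and KD overlapped WT, so its call among the 10 lower in KD is uncertain. It also counts among the 15 called higher in OE against KD and the 8 called there at 2-fold or more. Those calls involve the group that let it pass the filter. Its difference between OE and WT did not pass (adjusted p 0.141), and passed with limma-voom (0.0337). Psmb9, at 0.354 ± 0.0168 CPM (SD, n = 3) in WT, against 0.207 ± 0.153 in KD and 0.635 ± 0.184 in OE, passed only in OE against KD (log2 fold change 1.65, SE 0.56, adjusted p 0.0104). That call was lost without KD replicate 1 (1.24, adjusted p 0.0675) or OE replicate 3 (1.39, 0.0619). Both stood far below the subunits they replace: per kilobase, Psmb8 stood at 0.0029 ± 3.25e-04 of Psmb5 in OE, and Psmb9 at 0.0016 ± 3.94e-04 of Psmb6. Psmb10, the third such subunit, was at 0.459 ± 0.0385 of its constitutive counterpart Psmb7 in WT and passed in no comparison, with 21.8 ± 0.595 CPM in WT, against 21.4 ± 0.776 in KD and 20.0 ± 0.972 in OE. The activator subunit Psme1 also passed in none. Psme2 was called higher in KD, from 54.1 ± 3.15 to 60.4 ± 1.06 CPM (log2 fold change 0.16, SE 0.051, adjusted p 0.0396), but not with library totals alone (0.12, adjusted p 0.273), no filter beyond 1 count (0.16, 0.0539) or only the groups compared (0.15, 0.0738), not with the replicate number as a block (0.16, 0.0570), and not without WT replicate 3 (0.11, 0.139), any KD library (0.15 to 0.17, 0.0700 to 0.138) or the first (0.0586) or second (0.0544) OE library. Between OE and KD, Psme2 was lower in OE (-0.21, SE 0.034, adjusted p 0.00259), a call kept in all 17 alternatives that refit it. Of the 150-base stretches of Psme2, 12.1% also occurred in Psme2b, so reads of either may have been counted to the other.

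The transactivator Nlrc5, which drives class I, B2m, Tap1 and Psmb9 in lymphocytes, had 10 to 61 counts in a library. It stood at 0.633, 0.723 and 0.649 CPM in WT, 0.437, 0.251 and 0.348 in KD, and 0.959, 1.23 and 0.511 in OE. KD lay below WT without passing (log2 fold change -0.94, SE 0.21, adjusted p 0.0959), and OE overlapped WT (0.43, SE 0.36, adjusted p 0.385). OE and KD differed (1.37, SE 0.41, adjusted p 0.00616), but not without OE replicate 2 (1.07, adjusted p 0.0583). Of the genes Nlrc5 drives in lymphocytes, H2-K1, H2-D1, B2m and Tap1 were called lower in KD. Psmb9 (-0.82, adjusted p 0.306) and, among class Ib genes, H2-T23 (-0.092, adjusted p 0.637) did not pass. The part of Nlrc5 in these differences was not tested. Of all tested class Ib genes only H2-Q4 was called in KD (-0.47, adjusted p 1.06e-04). H2-M3 (0.23, adjusted p 0.295) and H2-T22 (0.17, adjusted p 0.275) were among those above 0 that did not pass.

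Sequences before the start sites are shown for H2-K1, H2-D1, H2-Q4, B2m, Tap1 and H2-DMb1, all called lower in KD. Of the other genes called lower there, H2-DMb2 and Psmb8 are not shown, and Tap2 and Cd1d1 had no promoter entry. The sequences are the 200 bases upstream of an annotated start (RefSeq, GRCm38.p6), 5′ to 3′ on the gene's strand. H2-K1 has another annotated start, which is not shown. Capitals mark matches, on either strand, to GAAA-any 2 bases-GAAA or the shorter GAANNGAAA (letters of interferon-stimulated response elements), GGGA-any 4 bases-CC (letters of NF-kB sites), CCAAT and TGACG; adjoining or overlapping matches run together.
H2-K1, chr17:34000348-34000547, minus strand: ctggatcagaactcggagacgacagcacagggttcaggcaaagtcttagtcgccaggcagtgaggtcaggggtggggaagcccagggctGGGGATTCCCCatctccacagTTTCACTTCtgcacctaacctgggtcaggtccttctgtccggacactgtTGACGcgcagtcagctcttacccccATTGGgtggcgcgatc
H2-D1, chr17:35262894-35263093, plus strand: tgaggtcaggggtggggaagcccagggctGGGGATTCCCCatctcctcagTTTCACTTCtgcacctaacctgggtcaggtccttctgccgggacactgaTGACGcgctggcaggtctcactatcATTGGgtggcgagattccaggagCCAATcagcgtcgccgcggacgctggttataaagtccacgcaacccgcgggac
H2-Q4, chr17:35379417-35379616, plus strand: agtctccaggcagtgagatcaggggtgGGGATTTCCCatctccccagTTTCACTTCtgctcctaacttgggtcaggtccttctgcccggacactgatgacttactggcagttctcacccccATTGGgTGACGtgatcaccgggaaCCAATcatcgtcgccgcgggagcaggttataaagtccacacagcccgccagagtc
B2m, chr2:122147487-122147686, plus strand: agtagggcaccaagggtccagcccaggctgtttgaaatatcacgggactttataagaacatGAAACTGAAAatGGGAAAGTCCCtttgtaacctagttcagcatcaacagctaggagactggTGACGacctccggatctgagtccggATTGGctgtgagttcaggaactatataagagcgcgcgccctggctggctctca
Tap1, chr17:34187356-34187555, plus strand: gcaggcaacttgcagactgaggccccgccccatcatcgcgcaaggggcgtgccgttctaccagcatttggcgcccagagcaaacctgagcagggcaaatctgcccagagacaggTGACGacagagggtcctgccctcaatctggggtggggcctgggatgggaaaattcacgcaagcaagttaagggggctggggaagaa
H2-DMb1, chr17:34152991-34153190, plus strand: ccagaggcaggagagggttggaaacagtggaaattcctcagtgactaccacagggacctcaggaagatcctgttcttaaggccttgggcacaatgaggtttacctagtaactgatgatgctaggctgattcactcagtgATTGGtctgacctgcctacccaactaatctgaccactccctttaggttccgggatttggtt

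Of the 49 genes 40 had a promoter entry, and 23 of these were among the tested genes. Windows here run from 250 bases before to 50 after a start. GAANNGAAA was found in windows of 8 of the 23 tested genes, against 7.52% of all 32851 windows, and the longer GAAA-any 2 bases-GAAA in 5, against 3.44%. GGGA-any 4 bases-CC was found in 8 of 23 against 20.7% of windows, CCAAT in 16 against 37.4%, and TGACG in 10 against 20.8%. A gene can have several windows, and H2 promoters resemble each other along their whole length, so these counts are descriptions of related sequences. The windows of H2-K1, H2-D1 and H2-Q4 each held GAANNGAAA, GGGA-any 4 bases-CC, CCAAT and TGACG. Those of H2-M3 and H2-Q7 also held all of these, and neither gene was called in KD against WT. Their log2 fold changes there were 0.23 (adjusted p 0.295) for H2-M3 and 0.23 (adjusted p 0.654) for H2-Q7. Tap1, whose start lies close to that of Psmb9 on the opposite strand, held only CCAAT and TGACG in its window, and H2-DMb1 only CCAAT. Of the genes called lower in KD whose sequences are not shown, H2-DMb2 held only CCAAT and Psmb8 held none of the motifs.

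Peptide editing and trimming genes changed mainly in OE. Tapbp, which bridges Tap and the heavy chain, stood at 133, 132 and 129 CPM in WT, 132, 124 and 135 in KD, and 90.2, 94.1 and 96.4 in OE. The OE libraries lay below all others, and Tapbp fell by 28.8% (log2 fold change -0.49, SE 0.030, adjusted p 2.06e-08), and KD overlapped WT (-0.0098, SE 0.038, adjusted p 0.916). Its exons overlap those of Zbtb22 on the same strand, which was also lower in OE (-0.32, SE 0.067, adjusted p 5.97e-04). Tapbpl (TAPBPR), a second peptide editor, fell from 9.80 ± 1.22 to 7.67 ± 0.685 CPM in OE (-0.35, SE 0.13, adjusted p 0.0166), a call lost without WT replicate 1 (-0.27, 0.0944) or OE replicate 1 (-0.28, 0.0939). Its difference between OE and KD (-0.25, adjusted p 0.0741) passed without WT replicate 2 (-0.26, 0.0382) and with only the groups compared (-0.26, 0.0294). Erap1, the trimming peptidase, stood at 17.3, 21.0 and 17.1 CPM in WT, 20.7, 22.1 and 23.2 in KD, and 11.8, 12.3 and 11.3 in OE. It fell by 36.2% in OE (-0.65, SE 0.10, adjusted p 4.92e-06), with OE separate from the rest. In KD it was called higher (0.25, SE 0.11, adjusted p 0.0421) although its libraries overlapped WT, and this was lost without WT replicate 1 (0.20, adjusted p 0.153) or WT replicate 3 (0.19, 0.141) and without the second (0.24, 0.120) or the last (0.21, 0.182) KD library, and also when OE replicate 1 (0.0587) or 2 (0.0545) was left out.

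Genes around Erap1 moved the same way. Of the 77 tested protein-coding genes within 10 Mb on chromosome 13 that are not in the set, 51 were called lower and 1 higher in OE (67.5% called, against 36.4% of all genes), and their median difference from WT was -0.50 (log2). In KD 31 were called higher and 1 lower (41.6% called, against 21.3%), and the median was 0.19. Cast, which overlaps Erap1's exons on the opposite strand, changed by -0.58 (SE 0.12, adjusted p 2.09e-05) in OE and 0.42 (SE 0.11, adjusted p 7.86e-04) in KD. The part of the region in the Erap1 change was not tested. On chromosome 17, where 39 of the 49 genes lie, the median shifts were smaller. Between the outermost H2- genes, from 33996017 to 37483552, 84 other protein-coding genes were tested; in KD 3 were called higher and 13 lower (19% called, median -0.056), and in OE 9 higher and 19 lower (33.3%, median -0.023). Over both directions together, these shares were below those of all genes. The share called lower, however, was above that of all genes, which was 10.4% in KD and 19.5% in OE. The share called higher was below it, at 11% and 17% of all genes. In KD, 57 of the 84 lay below 0 and 27 above. Between OE and KD, 24 were called higher and 15 lower (46.4% called, against 41.5% of all genes, median 0.067). The part of this region in the changes of the set was not tested. The 3 of the 84 with the smallest p over the groups were Flot1, a membrane scaffold (0.25 in KD and -0.38 in OE), the matrix gene Tnxb (-1.36 in OE) and the collagen receptor Ddr1 (-0.34 in OE).

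**Figure D3:**
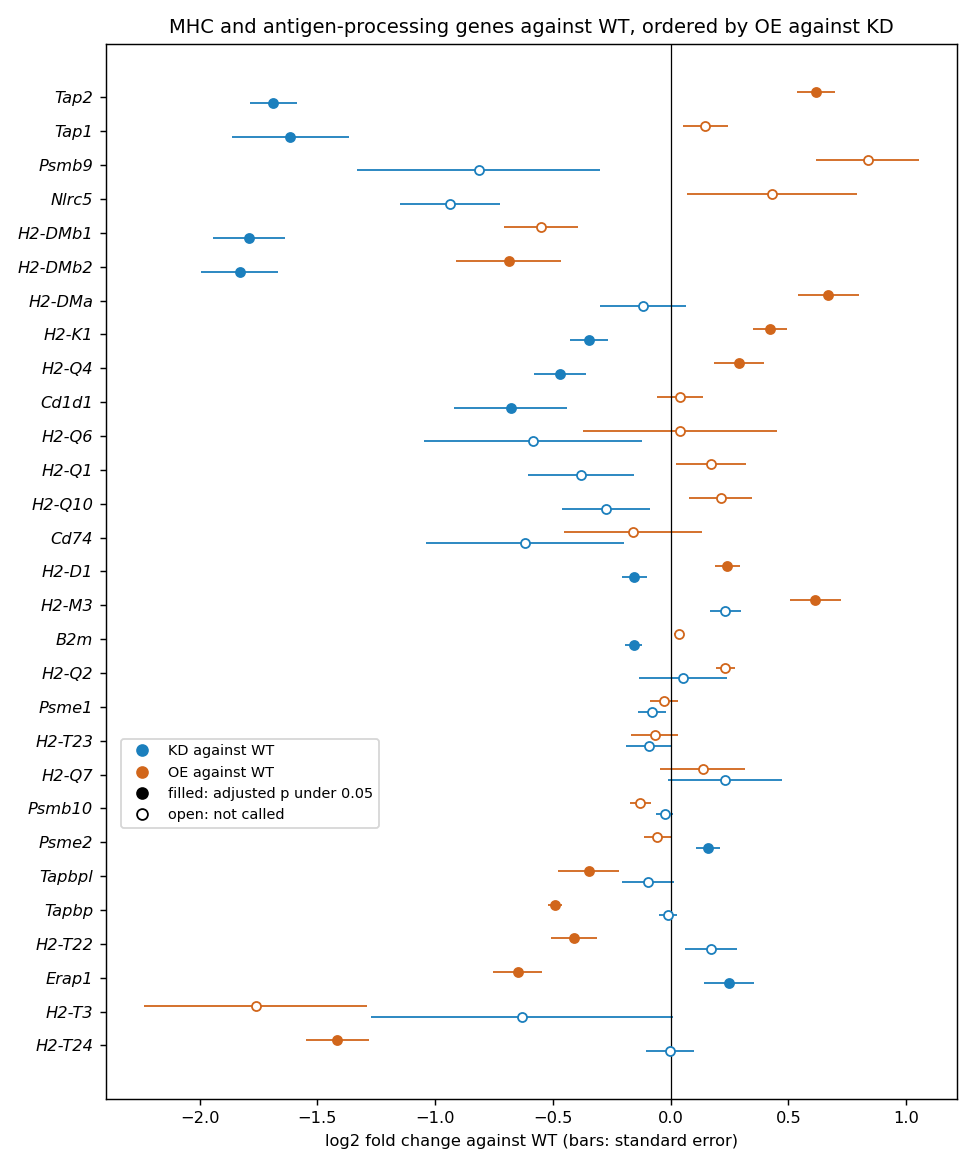
The horizontal axis gives the log2 fold change against WT, in blue for KD and orange for OE, with bars for the standard error; genes are ordered by OE against KD, filled points passed the adjusted p threshold and open points did not. Tap2 and Tap1 lie at -1.69 and -1.61 in KD, and H2-T24 at -1.42 in OE; Psmb8, at 0 counts in KD, is left out.

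In the class II route the chain genes were near 0 counts, but H2-DM was measurable. H2-DMb1 stood at 2.16, 2.40 and 1.72 CPM in WT, 0.556, 0.653 and 0.615 in KD, and 1.53, 1.47 and 1.29 in OE. H2-DMb2, the neighbouring second copy of the beta chain gene, stood at 2.29, 1.60 and 2.01 CPM in WT, 0.497, 0.578 and 0.574 in KD, and 1.02, 1.11 and 1.51 in OE. For both the 3 groups were separate, with KD lowest and WT highest. H2-DMb1 fell by 71.1% in KD (log2 fold change -1.79, SE 0.15, adjusted p 1.50e-05) and H2-DMb2 fell by 71.9% (-1.83, SE 0.16, adjusted p 3.53e-05). In OE the differences were -0.55 (SE 0.16, adjusted p 0.0543) and -0.69 (SE 0.22, adjusted p 0.0308). The H2-DMb1 value passed without WT replicate 3 (-0.68, adjusted p 0.0306), with library totals (-0.61, 0.0472), with at least 10 counts in every library (-0.55, 0.0494) and with limma-voom (-0.55, 0.0448), and the H2-DMb2 call was lost without WT replicate 1 (-0.57, 0.124), WT replicate 3 (-0.67, 0.0649), OE replicate 1 (-0.58, 0.123) or OE replicate 2 (-0.63, 0.101). The copies share 4.7% and 4.1% of their 150-base stretches, and their summed level was 4.06 ± 0.364 CPM (SD, n = 3) in WT, against 1.16 ± 0.0929 in KD and 2.65 ± 0.133 in OE. The alpha chain gene H2-DMa stood at 1.16, 1.21 and 1.54 CPM in WT, 1.43, 1.05 and 1.11 in KD, and 2.003, 2.16 and 2.07 in OE. OE was separate from the rest and higher (0.67, SE 0.13, adjusted p 0.0192), a call lost without WT replicate 1 (0.60, 0.0672), WT replicate 2 (0.60, 0.0634) or OE replicate 2 (0.64, 0.0610). Its exons overlap those of the far more abundant Brd2 (316 CPM in WT) on the opposite strand. Cd74 had 12 to 67 counts in a library, at 0.792 ± 0.292 CPM in WT, against 0.517 ± 0.187 in KD and 0.721 ± 0.0894 in OE, and passed in no comparison.

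Cd1d1, which presents lipids to natural killer T cells, stood at 4.93, 5.71 and 4.86 CPM in WT, 3.06, 2.41 and 4.18 in KD, and 5.12, 5.05 and 5.82 in OE. KD lay below the other libraries, and Cd1d1 fell by 37.6% (log2 fold change -0.68, SE 0.24, adjusted p 0.00557), and OE overlapped WT (0.040, SE 0.099, adjusted p 0.882). The sequence-related Cd1d2 was not tested.

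The other genes of the pathway were taken from lists of upstream regulators, endoplasmic reticulum chaperones and export factors, the constitutive proteasome with cytosolic peptidases, the class II route, and class I-like genes with other names. For each list, the 3 genes with the smallest p over the groups are named. Over all genes tested, 21.3% were called in KD and 36.4% in OE against WT. Of 26 tested upstream regulators, 2 were called higher and 6 lower in KD (30.8% called, median log2 fold change -0.090), and 10 higher and 7 lower in OE (65.4%, 0.034). The interferon receptor kinase Tyk2 was at -0.57 in OE (SE 0.029, adjusted p 4.70e-07) and its partner kinase Jak1 at 0.36 (SE 0.040, adjusted p 8.04e-07). Nfyc, a subunit of the CCAAT-binding factor, was at -0.24 in KD (SE 0.022, adjusted p 0.00134) and 0.25 in OE (SE 0.051, adjusted p 3.52e-04).

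Of 15 chaperones and export factors, 7 were called higher and 0 lower in KD by edgeR (46.7% called; 9 had an unadjusted p under 0.05), and 5 higher and 4 lower in OE (60.0%). The general chaperone Hspa5 (BiP) went from 1258 ± 43.7 CPM in WT to 2202 ± 85.02 in KD and 1793 ± 21.8 in OE. Calr, the calreticulin of the peptide-loading complex, was at 0.64 in KD and 0.42 in OE, and the glycoprotein folding sensor Uggt1 at 0.39 in KD (SE 0.054, adjusted p 1.85e-06) and -0.12 in OE (SE 0.059, adjusted p 0.0386). Of 24 genes of the constitutive proteasome and peptidases, 4 were called higher and 2 lower in KD (25% called), and 9 higher and 1 lower in OE (41.7%). Those with the smallest p were the peptidase Nrd1 (0.53 in OE, SE 0.046), the catalytic-core subunit Psmb2 (-0.24 in KD, 0.40 in OE) and the subunit Psma4 (0.14 in KD, -0.15 in OE).

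Of 9 tested genes of the class II route, 1 was called higher and 1 lower in KD (22.2% called), and 0 higher and 6 lower in OE (66.7%). The protease Ctsl was at 0.17 in KD (SE 0.029, adjusted p 0.00403) and -0.60 in OE (SE 0.036, adjusted p 2.04e-10), the ubiquitin ligase Marchf8 at -0.32 in OE and the protease Ctsb at -0.24 in OE. The costimulatory genes Cd86 and Cd40 and the protease Ctss were not tested. Of 7 tested class I-like genes, 3 were called lower in KD (42.9%) and 2 in OE (28.6%). The Fc receptor Fcgrt was at -0.41 in KD and -0.41 in OE, and Raet1d, a ligand of the natural killer receptor NKG2D, at -0.57 and -0.52. Mr1, which presents vitamin B metabolites, fell from 3.45 ± 0.557 to 1.65 ± 0.583 CPM in KD (log2 fold change -1.05, SE 0.31, adjusted p 0.00100) and was at 3.95 ± 0.360 in OE (adjusted p 0.486).

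**Figure D4:**
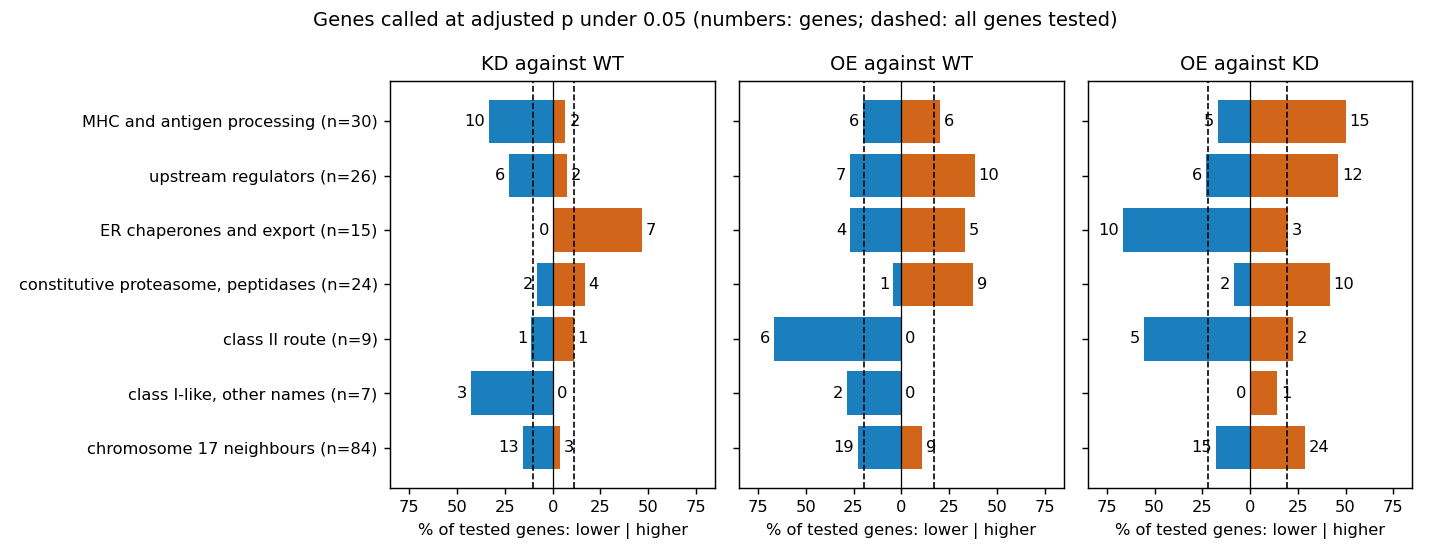
Bars give the percent of the tested genes of each list called lower (blue, left) and higher (orange, right) in each comparison, with gene numbers beside them; dashed lines give the same percent over all 16955 genes tested. In KD against WT, 10 of 30 MHC and antigen-processing genes were lower and 2 higher, while 7 of 15 chaperones and export factors were higher and 0 lower.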

How the data were processed

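Per the labels, poly-A RNA of MCEC was sequenced as paired 150-base reads. The values deposited by the authors are raw counts, 1 column a library and 1 Ensembl gene a row, judged from the values and column names. The submitters' processing notes name the builds GRCm38 and mm10; aligner, counting program, strand use and annotation release are not given in the sources used here. Of 55774 rows, 455 repeated 168 genes with identical counts and were merged. Positions, exon lengths, overlaps and transcripts came from GENCODE M21 (GRCm38).

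Genes kept by filterByExpr were scaled with TMM and fitted in edgeR 4.0.16 (robust quasi-likelihood, 9 libraries, group as the only term; R 4.3.3). Each standard error was made from the group SDs of log2 CPM, with a prior count of 2. An exact permutation test of 3 against 3 libraries cannot reach the threshold. The procedure was tested on simulated data. The alternatives were DESeq2 size factors, library totals alone, no filter beyond 1 count, 10 counts in every library, DESeq2 1.42.0, limma-voom (limma 3.58.1), a fit of just the 2 groups concerned, a replicate block, a minimum fold of 1.5, and leaving out each library. Every tested gene of the set is named, and 3 genes of each other list by smallest p over the groups. Protein identity between heavy chains was not analysed here. The genes and lists were chosen with earlier results of these data known.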

Additional observations from a re-analysis of the deposited data

How the results depend on the processing

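Among the 30 tested genes, no call changed direction in any alternative. Under a test against a minimum fold of 1.5 the counts of calls were 4 in KD against WT (0 higher, 4 lower), 1 in OE against WT (0 higher, 1 lower) and 8 in OE against KD (6 higher, 2 lower), where 1.62%, 4.68% and 7.85% of all genes were called. Every other alternative left the counts within 1.5 times those reported. Leaving out 1 library at a time gave 9 to 12, 9 to 12 and 17 to 21 calls. With the replicate number as a block they were 11, 12 and 20; same-numbered libraries deviated together with correlations of only -0.04 to 0.05, so the numbers were not read as pairs, and the block ended only the Psme2 call in KD. Erap1 in KD was also lost with library totals (0.21, adjusted p 0.189), limma-voom (0.0547) or only the groups compared (0.0700), and H2-DMb2 in OE with no filter beyond 1 count (0.0511). Between OE and KD, H2-M3 was lost with library totals (0.0650) or no such filter (0.0771). Psmb8, Psmb9 and H2-T3 gave no value with at least 10 counts in every library. With only the groups compared, Psmb8 gave none in KD against WT, and H2-T3 gave none in OE against WT or OE against KD. Psmb8, Psmb9 and Nlrc5 rest on at most 61 counts in a library, so small changes in them were not detectable.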
